A study of Mus musculus with 6 samples.

Results

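The genes described here encode the proteasome. Of the 16440 genes in the deposited table, 44 were chosen because their symbols follow the Psma, Psmb, Psmc, Psmd, Psme or Psmg series, and the interferon-inducible immunoproteasome genes Psmb8, Psmb9 and Psmb10 were left out. They were 8 alpha subunits and 8 beta subunits of the 20S core, 6 ATPases and 11 non-ATPase subunits of the 19S regulatory particle, 4 activators and 7 assembly chaperones (Psmg1 to Psmg4, Psmd5, Psmd9 and Psmd10). All 44 passed the filter on low values. Their loci lay on 16 chromosomes; 4 of them overlapped another gene of the table (Psma3, Psma4, Psmd1 and Psme1), and RefSeq lists 6 pseudogenes with Psm symbols, so some fragments could have been divided. RNA sequencing covered 3 libraries of normal myeloid progenitors (MPs) and 3 of c-Kit+ acute promyelocytic leukemia (APL) cells, all from mice of the FVB N/J strain. The normal MPs were Lin-Sca-1-c-Kit+ bone marrow cells, a mixed gate of myeloid, erythroid and megakaryocytic progenitors. The APL cells arose in mice that express human PML/RARα from the hMRP8 promoter, which is active in myeloid cells; they were marked with GFP by the MigR1 retroviral vector, passaged in syngeneic recipients and sorted for GFP and c-Kit. Neither group received a drug. The labels call the libraries of a group biological replicates without naming mice, so n counts libraries, and the p-values measure the spread between them, which may be partly technical.

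The 26S proteasome degrades proteins that carry ubiquitin chains. Its core is a barrel of stacked rings: the outer rings of alpha subunits form the gate, and the inner rings of beta subunits hold the proteolytic sites. The regulatory particle binds, deubiquitinates, unfolds and threads substrates into the barrel, the Psme activators can take its place at the barrel's ends, and dedicated chaperones build the particles without remaining in them. Rapidly dividing and protein-secreting blood cells depend on it, and inhibitors of its Psmb5 site are used against myeloma.

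Expression is given as scaled fragments, the deposited fragment estimates after the authors' scaling of each library, when a gene is compared between groups. It is given as FPKM, fragments normalised to transcript length and library size, when genes are compared with each other. Fold changes are APL against MP on log2(scaled fragments + 1), and a gene was called higher or lower in APL when limma's p, adjusted over all 14595 genes tested, was under 0.05. Unscaled totals were 20608715 to 28382785 fragments per library. In these bulk samples, fewer cells of a type and less RNA per cell cannot be told apart. Kit, the gene of the sorting marker, went from a mean of 72.4 to 40.4 FPKM from MPs to APL cells. The granule genes of early myeloid cells, which were not part of the sort, went from 3549 to 8354 FPKM for Mpo, 2719 to 9386 for Elane, 1057 to 6351 for Ctsg and 1434 to 1567 for Prtn3, and Ly6a (Sca-1) was at a mean of 1.36 FPKM in MPs and 2.18 FPKM in APL cells; Cd34 was at 94.5 and 1.15 FPKM. The 7 erythroid markers examined summed to 1500 to 1977 FPKM in the MP libraries and 12.2 to 23.2 FPKM in the APL libraries, and the 4 megakaryocyte markers to 60.4 to 93.7 and 3.02 to 4.10 FPKM. Of the erythroid markers, Hbb-b1 did not exceed 3 scaled fragments in any APL library and did so in MP library 3 alone among the MPs. The 5 mature neutrophil markers summed to 1018 to 2167 and 939 to 1076 FPKM, the 5 monocyte markers found to 35.0 to 41.8 and 26.3 to 28.0, and the 3 mast cell markers to 42.6 to 60.9 and 36.3 to 41.9. Within these sums single markers differed in opposite directions. From MPs to APL cells the means went from 12.6 to 3.61 FPKM for Csf1r, from 19.5 to 0.725 for Ly86, from 34.05 to 0.786 for Cpa3, and, the other way, from 1.31 to 9.002 for Emr1, from 5.28 to 13.6 for Cd14 and from 17.4 to 38.6 for Mcpt8. Among the neutrophil markers they went from 132 to 48.4 for Ltf, from 629 to 222 for Ngp and from 878 to 701 for Camp. Mmp8 went from 6.02 to 6.67 and Mmp9 from 7.18 to 8.84. The 3 B cell markers found summed to 0.241 to 0.455 FPKM in MPs and 0.120 to 0.287 FPKM in APL cells. The 3 T cell markers found summed to 1.96 to 2.58 FPKM in MPs and 0 to 0.0669 FPKM in APL cells, with Cd3e at 0 in every MP library and Cd3g at 0 in every APL library. The part of these cells in the differences described next was not tested.

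Promoter sequence is shown first for 4 of the genes called: Psme4 and Psmb5, which were higher in APL cells, and Psmd12 and Psme1, which were lower. Each run covers 250 bases before and 10 bases from the transcription start on, 5′ to 3′ on the strand of the gene, from RefSeq on GRCm38.p6. Capitals mark TGACNNNGC, the core of the antioxidant response element through which Nfe2l1 and its relatives are known to act on proteasome genes, searched on both strands. These 4 were chosen for printing after their values were seen, and the share of all windows that hold a match is given below.
Psme4, chr11:30771525-30771784, plus strand: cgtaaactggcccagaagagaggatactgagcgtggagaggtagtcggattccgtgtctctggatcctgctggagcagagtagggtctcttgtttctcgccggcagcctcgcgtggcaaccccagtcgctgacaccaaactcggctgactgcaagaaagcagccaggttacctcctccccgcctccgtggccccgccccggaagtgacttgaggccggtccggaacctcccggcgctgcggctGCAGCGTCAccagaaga
Psmb5, chr14:54617986-54618245, minus strand: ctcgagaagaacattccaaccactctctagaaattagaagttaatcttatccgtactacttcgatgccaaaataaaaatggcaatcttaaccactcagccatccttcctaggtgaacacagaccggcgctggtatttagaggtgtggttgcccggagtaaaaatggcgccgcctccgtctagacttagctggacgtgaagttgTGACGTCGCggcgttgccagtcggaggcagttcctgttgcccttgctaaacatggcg
Psmd12, chr11:107479278-107479537, plus strand: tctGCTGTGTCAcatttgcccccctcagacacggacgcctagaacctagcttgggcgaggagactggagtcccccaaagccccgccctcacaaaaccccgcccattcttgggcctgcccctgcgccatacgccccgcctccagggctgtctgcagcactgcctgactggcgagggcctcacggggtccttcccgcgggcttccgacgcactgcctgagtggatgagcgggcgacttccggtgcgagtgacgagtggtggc
Psme1, chr14:55578244-55578503, plus strand: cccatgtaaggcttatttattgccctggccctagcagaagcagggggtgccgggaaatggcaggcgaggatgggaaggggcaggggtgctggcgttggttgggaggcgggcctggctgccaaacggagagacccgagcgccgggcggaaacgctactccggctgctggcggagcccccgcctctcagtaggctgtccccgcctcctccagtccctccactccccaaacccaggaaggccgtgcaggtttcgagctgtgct
The match in Psmb5 (TGACGTCGC) lay on the strand of the gene and began 47 bases before the start. In Psme4 (TGACGCTGC) and Psmd12 (TGACACAGC) it lay on the other strand, so that the capitals show its reverse complement, and began 7 and 247 bases before the start. The Psme1 window held no match. RefSeq windows were at hand for 36 of the 44 genes, leaving out Psma8, Psmb1, Psmb2, Psmb7, Psmc3, Psmd3, Psmd7 and Psmg2. In the windows of 250 bases before to 50 bases after the start, TGACNNNGC occurred in 6 of 36 (16.7%), against 15.0% of 10422 genes tested and 12.5% of 27025 genes. The other matches were in Psmb6, Psmc6 and Psmd9, so that of the 6 genes 2 were called higher, 3 lower and 1 was not called. Of the 30 genes without a match, 0 were called higher, 14 lower and 16 were not called. Among all genes tested, 29.7% were called higher and 37.3% lower. Psmd7, the remaining proteasome gene called higher, had no window. A link between the motif and the calls was not tested. The CCAAT box occurred in 13 proteasome windows (36.1%, against 38.6% of genes tested) and GGGCGG, the GC box, in 22 (61.1%, against 61.5%). In Psmd9 the TGACNNNGC match overlapped a GGGCGG match.

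Of the 44 proteasome genes, 22 were called lower in APL cells, 3 higher (Psme4, Psmb5 and Psmd7) and 19 were not called. Among all genes tested 67.0% were called, 37.3% lower and 29.7% higher, so the 22 lower genes (50% of the 44) stand beside a high background, and the 3 higher genes (6.82%) beside one that exceeds them. The median log2 fold change of the 44 was -0.25, against -0.10 for all genes, and 32 of the 44 lay below the median of all genes. The changes were small. Past a fold change of 1.5, 3 genes were called lower (Psme1, Psmg2 and Psma8) and 1 higher (Psme4), where the background was 46.1%, or 24.4% lower and 21.7% higher. The groups did not overlap for 26 genes that were lower and 3 that were higher in every APL library (background 39.8% and 31.1%, or 70.9% in all). Two-sided exact permutation of 3 libraries against 3 cannot give a p below 0.1 for a single gene.

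**Figure D1:**
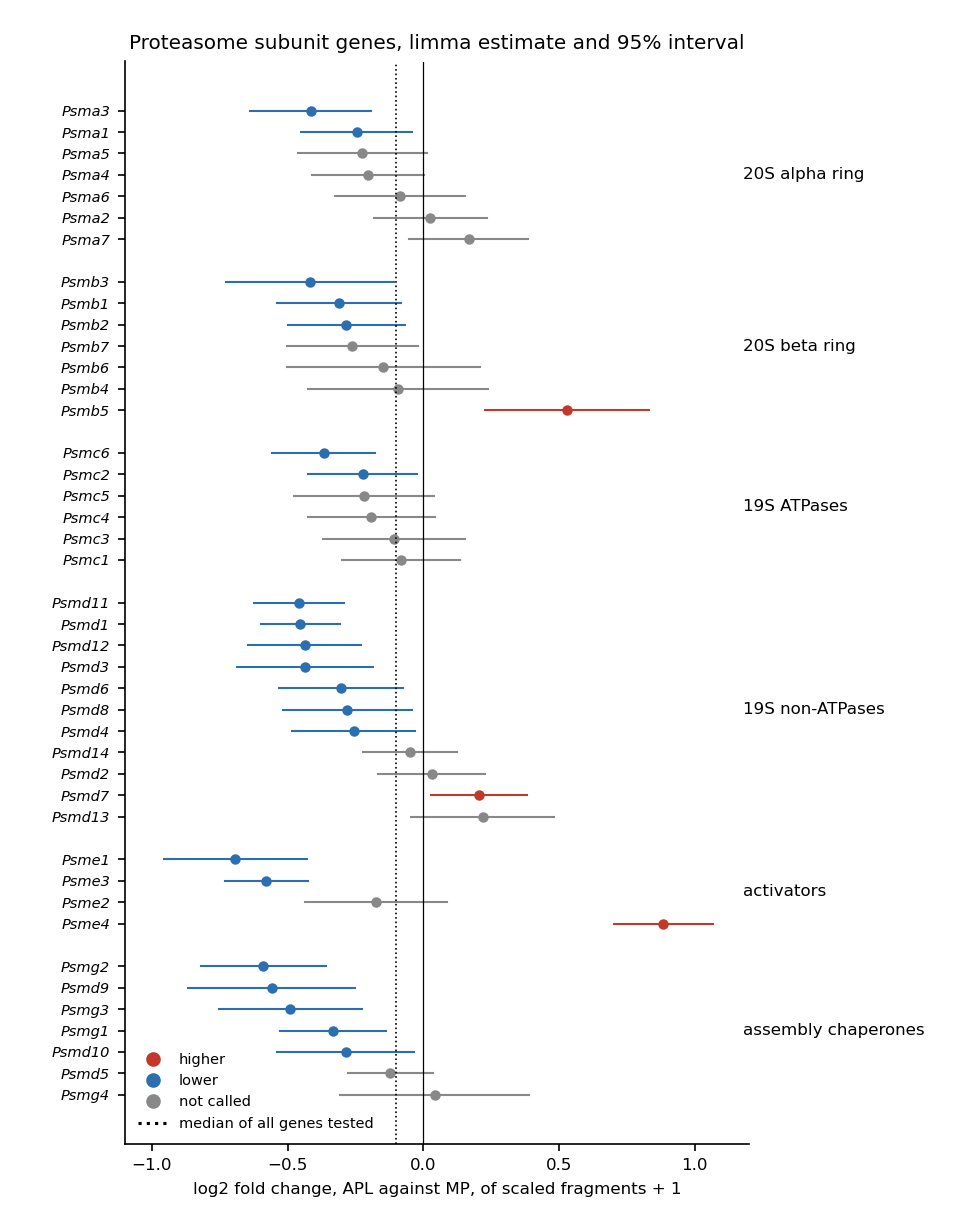
Log2 fold change of 42 proteasome genes, APL against MP, on the log2(scaled fragments + 1) scale (x axis), grouped by role; points are limma estimates, lines 95% confidence intervals and the dotted line the median of all genes tested (-0.10). Most points lie left of 0, while Psme4 (0.88) and Psmb5 (0.53) lie apart on the right; Psma8 and Psmb11 are not drawn.

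Single libraries weighed on these counts. MP library 3 differed from MP libraries 1 and 2 by 18.7 and 19.1 times the median squared difference that counting noise gives, against 3.12 for MP libraries 1 and 2 and 3.30 to 7.40 between APL libraries. Among the 42 genes without Psma8 and Psmb11, it was the highest MP library for 41 (97.6%, against 56.3% of all genes tested) and the highest of all 6 libraries for 38 (90.5%, against 35.7%). Its median difference from the mean of the other MP libraries was 0.30 on the log2 scale for the 42 genes and 0.13 for all genes. Without MP library 3, 17 genes were called lower and 5 higher, with Psma7 (0.27) and Psmd13 (0.32) joining the higher ones, and the median was -0.15. Over all genes, 4973 were called lower and 4715 higher without MP library 3, against 5443 and 4342 with every library. Without it the medians were -0.11 for the alpha ring, -0.15 for the beta ring, -0.087 for the ATPases and -0.18 for the non-ATPases, in place of -0.21, -0.27, -0.20 and -0.28, and the beta ring was also at -0.15 without APL library 1. The offset of the 44 from the median of all genes, -0.15, was -0.11 without MP library 3 and -0.083 without APL library 1. The APL libraries moved the count further: 13 genes were called lower without APL library 1, and 13 without APL library 2. The calls lost without either were those of Psma1, Psmb1, Psmb2, Psmb3, Psmc2, Psmd4, Psmd6, Psmd8 and Psmd10, and without APL library 2 also that of Psmd7. Psma1, Psmc2, Psmd4, Psmd8 and Psmd10 also lost theirs without APL library 3 or without MP library 3. Under all 20 alternative settings 12 of the 25 calls kept their direction and significance: Psme4 and Psmb5 were higher, and Psma3, Psma8, Psmd3, Psmd9, Psmd11, Psmd12, Psme1, Psme3, Psmg2 and Psmg3 lower.

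**Figure D2:**
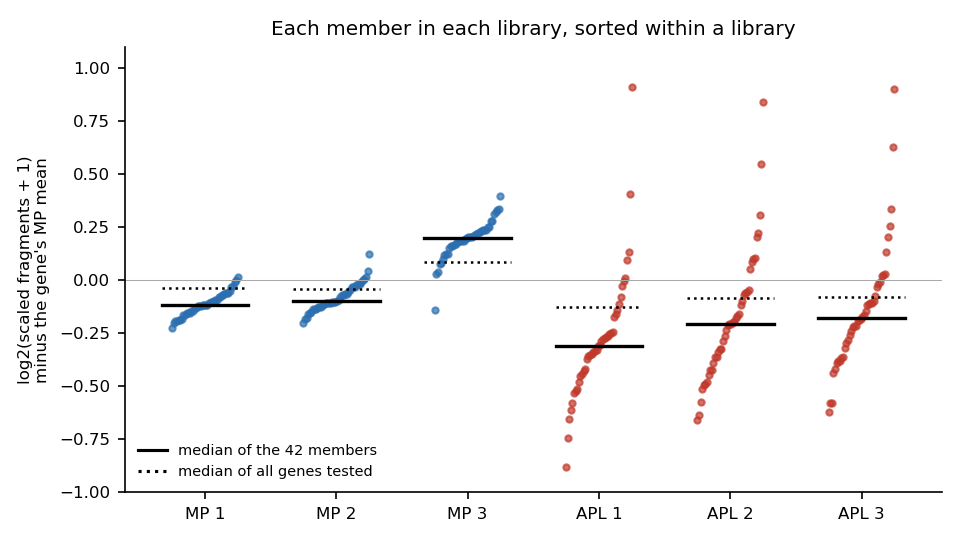
Log2 difference of each of 42 proteasome genes from its own MP mean (y axis) in each of the 6 libraries (x axis), sorted within a library; solid bars are the median of the 42 genes and dotted bars the median of all genes tested. MP library 3 sits highest, with a proteasome median of 0.20 above the MP mean, and the 3 APL medians lie between -0.31 and -0.18.

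The alpha ring, whose subunits gate the barrel and dock the regulators, had 3 of 8 genes called lower (37.5%, against 37.3% of all genes) and 0 higher, with a median of -0.21. The testis-restricted paralog of Psma7, Psma8, was the most changed: the MP libraries held 86.2, 122 and 115 scaled fragments and the APL libraries 2.36, 4.33 and 4.94. All APL libraries were close to the 3 fragments taken as the limit of detection, and the groups were far apart (log2 fold change -4.51, SE 0.30, adjusted p = 1.88e-06 by limma). Its fitted fold change depends on the pseudocount (-4.67 with 0.5 and -3.67 with 5), and its level in MPs was low, 2.37 ± 0.411 FPKM (SD, n = 3) against 248.7 ± 20.03 FPKM for Psma7. Fragments of these close paralogs could have been divided between them by the authors' counting, which was not tested. Among the 7 standard subunits, Psma3 fell furthest (log2 fold change -0.41, SE 0.10, adjusted p = 0.00477 by limma), and Psma1 was also lower (-0.24, adjusted p = 0.0376 by limma). Psma7, the alpha subunit with the highest fold change, had 4323, 4317 and 5359.7 scaled fragments in MPs and 4965, 5344 and 5347 in APL cells. The groups overlapped through MP library 3 (log2 fold change 0.17, SE 0.10, adjusted p = 0.152 by limma). For Psma4 the values were 3499, 3346 and 4158 in MPs and 3043, 3182 and 3298 in APL cells. For Psma5 they were 4156, 4592 and 5579.8 in MPs and 3981, 4107 and 4085 in APL cells. Neither gene overlapped between the groups, yet neither passed the test at adjusted p = 0.0768 and 0.0862 by limma, and both passed it when libraries were scaled to the same total. Psma6 (4184, 4465 and 5519 against 4203, 4471 and 4586) overlapped and was not called, with an estimate of -0.086 (95% interval -0.33 to 0.15), and Psma2 was at 0.026 (-0.18 to 0.24).

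In the beta ring, which holds the proteolytic sites, 3 of 8 genes were called lower (37.5%, against 37.3% of all genes) and Psmb5 higher, with a median of -0.27. Psmb5 (chr14:54614120-54617995) is the subunit with the chymotrypsin-like site. Its MP libraries held 1781, 1844 and 2533 scaled fragments and its APL libraries 2689.8, 2963 and 3137. The lowest APL library was above the highest MP library, which was MP library 3, and the rise was 1.44-fold (log2 fold change 0.53, SE 0.13, adjusted p = 0.00659 by limma; 95% interval 0.23 to 0.83). Without MP library 3 the estimate was 0.69. The other catalytic subunits did not rise with it: Psmb6, with the caspase-like site, had 2022, 2011 and 3043 in MPs and 1871, 2221 and 2194 in APL cells. Its groups overlapped and the estimate was -0.15 (-0.50 to 0.21). Psmb7, with the trypsin-like site, had 2972, 3079 and 3934 in MPs and 2664, 2804 and 2793 in APL cells. Every APL library was below every MP library, but the difference (-0.26) was not called, at adjusted p = 0.0542 by limma. The structural subunit Psmb3 had 2555, 2467 and 3482 in MPs and 1875, 2139 and 2302 in APL cells. It was lower in every APL library (log2 fold change -0.42, SE 0.14, adjusted p = 0.0234 by limma), as were Psmb1 (-0.31) and Psmb2 (-0.28), whereas Psmb4 overlapped between the groups (-0.093, not called). Psmb11, the thymic epithelial subunit, was at or under 3 scaled fragments in all 6 libraries, and no fold change is given for it.

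The 6 ATPases form the ring that unfolds substrates and opens the gate; 2 were called lower (33.3%, against 37.3% of all genes) and 0 higher, with a median of -0.20. Psmc6 had 2945, 3225 and 3515 scaled fragments in MPs and 2512, 2361 and 2622 in APL cells. No APL library reached the lowest MP library (log2 fold change -0.37, SE 0.083, adjusted p = 0.0038 by limma). Psmc2 had 3492, 3444 and 4099.8 in MPs and 2918, 3260.4 and 3253 in APL cells. It did not overlap either but was barely past the threshold (-0.22, adjusted p = 0.0494 by limma), and it kept its call in 8 of 20 alternative settings. Psmc1 showed the least change of the 6, with 3674, 3803 and 4543 in MPs and 3542, 3729 and 4042 in APL cells, groups that overlapped (-0.083, 95% interval -0.30 to 0.13). Psmc3 (4367, 4255 and 5510.3 against 3883, 4532 and 4648) likewise overlapped and was at -0.11. Psmc4 had 2711, 2729 and 3423 in MPs and 2420.0, 2564 and 2744 in APL cells, and Psmc5 2539, 2532 and 3287 in MPs and 2184, 2393 and 2571 in APL cells. For both, only APL library 3 reached into the MP range, and with estimates of -0.19 and -0.22 neither was called, although all 4 of Psmc1, Psmc3, Psmc4 and Psmc5 were called lower when libraries were scaled to the same total.

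The non-ATPase subunits of the regulatory particle included receptors, scaffolds and the lid with its deubiquitinase, and 7 of 11 were called lower (63.6%, against 37.3% of all genes) and 1 higher (median -0.28). The lid subunit Psmd11 was the lowest, with 2273, 2411 and 2536 scaled fragments in MPs and 1685, 1725 and 1848 in APL cells. Its groups were well separated (log2 fold change -0.46, SE 0.073, adjusted p = 0.000492 by limma). The lid subunits Psmd12 (-0.44) and Psmd3 (-0.44) and the base scaffold Psmd1 (-0.45) were lower by similar amounts at adjusted p = 0.00248, 0.00682 and 0.000232 by limma, and Psmd6 (-0.30) and Psmd8 (-0.28) by less. The ubiquitin receptor Psmd4 had 2772, 2693 and 3229 in MPs and 2149, 2550.4 and 2579 in APL cells. Its groups did not overlap, the estimate was -0.26 and the adjusted p 0.0464 by limma, which it kept under 0.05 in 11 of 20 alternative settings. Psmd14, the deubiquitinase that removes ubiquitin chains from bound substrates, had 3441, 3646 and 4037 in MPs and 3504, 3559 and 3661 in APL cells. Its groups overlapped and its estimate was -0.050 (-0.22 to 0.12). Among the 17 subunits of the regulatory particle that belong to the 44, only Psmd7, the structural partner of Psmd14, was called higher. Shfm1, a lid subunit outside the 44, was also called higher and is described below. Psmd7 had 4768, 4819 and 5435 in MPs and 5479.8, 5843 and 5969 in APL cells. The lowest APL library lay just above MP library 3, and the call (log2 fold change 0.20, SE 0.078, adjusted p = 0.0431 by limma) held in 12 of 20 settings. It was lost with quantile normalization (0.09), with libraries scaled to the same total (0.074), with voom weights (0.074) and without the variance trend (0.20). The call was also lost without MP library 1 (0.17), MP library 2 (0.18), APL library 2 (0.19) or APL library 3 (0.18). Psmd7 was the sole proteasome gene on chromosome 8, whose 778 tested genes had a median log2 fold change of 0.48; the part of this in the result was not tested. Psmd13, another lid subunit, had 2856, 2767 and 3469 in MPs and 3035, 3736 and 3813 in APL cells. The highest estimate of the 11 was its own (0.22), but MP library 3 overlapped the APL libraries and it was not called (adjusted p = 0.125 by limma). Psmd2, the other scaffold of the base, was at 0.031 (-0.17 to 0.23).

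Of the 4 activators, 1 was called higher (25%, against 29.7% of all genes) and 2 lower (50%, against 37.3%). Psme4, a nuclear activator of the barrel that works without ATP, was the only gene of the 44 called higher past 1.5-fold; its locus is chr11:30771775-30880361 on GRCm38, next to and in RefSeq overlapping Erlec1. Its MP libraries held 2596, 2804 and 2338 scaled fragments and its APL libraries 4844, 4608 and 4799.9. Each APL library exceeded the highest MP library by a wide margin, and here MP library 3 was the lowest of the 6 libraries. The rise was 1.85-fold (log2 fold change 0.88, SE 0.08, adjusted p = 1.38e-05 by limma; 95% interval 0.70 to 1.07), and 0.82 on the log2 scale without MP library 3. Psme1, a subunit of the interferon-inducible cytosolic activator, moved the other way, from 3610.4, 3256 and 4249.5 in MPs to 1999, 2471 and 2392 in APL cells. Every APL library was below every MP library, a 1.62-fold decrease (log2 fold change -0.69, SE 0.12, adjusted p = 0.000676 by limma). The Psme1 locus in the table overlaps Emc9, and fragments of the overlap cannot be assigned to either gene from these values. Its partner in the same ring, Psme2, had 2991, 2901 and 3933 in MPs and 2728, 2908 and 3002 in APL cells. The groups overlapped, and the estimate was -0.17 (-0.44 to 0.089). Psme3, which forms a nuclear ring of its own, had 7565, 7433 and 7810.0 in MPs and 5296, 4896 and 5092 in APL cells. The libraries of each group lay close together and far from the other group, a 1.49-fold decrease (log2 fold change -0.58, SE 0.067, adjusted p = 7.1e-05 by limma).

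**Figure D3:**
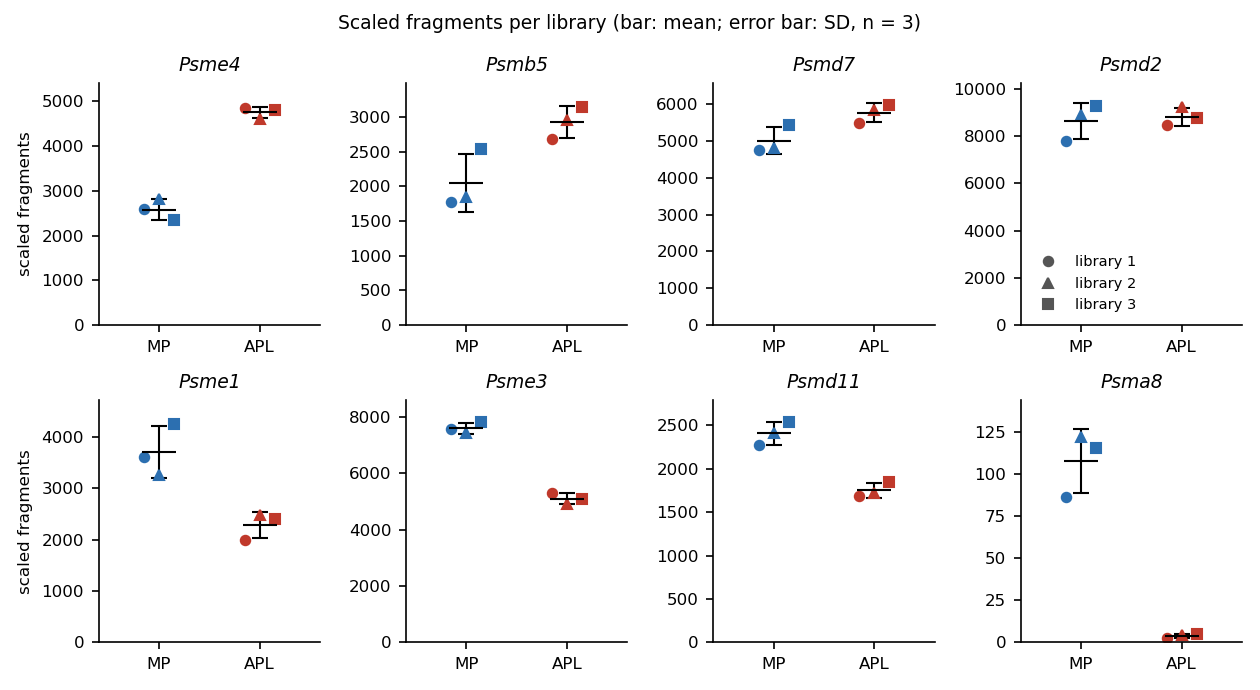
Scaled fragments (y axis, from 0) of 8 proteasome genes in the 3 MP and 3 APL libraries; circles, triangles and squares are libraries 1, 2 and 3, horizontal bars the mean and error bars the SD (n = 3). Psme4, Psmb5 and Psmd7 are higher in every APL library, Psme1, Psme3, Psmd11 and Psma8 lower, and Psmd2 overlaps between the groups.

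Among the assembly chaperones, 5 of 7 were called lower (71.4%, against 37.3% of all genes) and 0 higher, with a median of -0.33. Psmg1 and Psmg2 act as a pair, as do Psmg3 and Psmg4, to build the alpha ring. Psmg2 had 1417, 1605 and 1849 scaled fragments in MPs and 1117, 1021 and 1080.0 in APL cells. It was lower in every APL library, by 1.51-fold (log2 fold change -0.59, SE 0.10, adjusted p = 0.00079 by limma), and its partner Psmg1 was lower as well (-0.33, adjusted p = 0.00788 by limma). In the other pair, Psmg3 was lower (-0.49, adjusted p = 0.00481 by limma), while Psmg4 had 357, 374 and 519 in MPs and 379, 442 and 450.5 in APL cells. Psmg4 overlapped between the groups at an estimate of 0.042 (-0.31 to 0.39). Psmd5, Psmd9 and Psmd10 help to assemble the base of the regulatory particle. Psmd9 was lower (log2 fold change -0.56, SE 0.13, adjusted p = 0.00543 by limma). Psmd10 had 690.2, 723 and 895 in MPs and 633, 594 and 655 in APL cells, which did not overlap (-0.29, adjusted p = 0.0459 by limma), and it was called in 11 of 20 alternative settings; in RefSeq its locus overlaps Atg4a. Psmd5 had 2303, 2483 and 2602 in MPs and 2234, 2269.5 and 2281 in APL cells. The groups lay side by side without overlap, and the difference (-0.12, adjusted p = 0.151 by limma) was not called.

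Per length, the first 9 genes in each group were 20S subunits. Psme1, Psme2, Psme3 and Psmd7 in MPs, and Psme2, Psmd7 and Psmd2 in APL cells, exceeded Psmb6, the least abundant of the standard core subunits. The 14 standard 20S subunits ranged from 104 ± 22.03 FPKM for Psmb6 to 266 ± 42.2 FPKM for Psmb4 in MPs (SD, n = 3), and from 93.6 ± 8.85 FPKM for Psmb6 to 291 ± 13.9 FPKM for Psma7 in APL cells. Psmb4 and Psma7, the leading genes of both groups, did not differ in MPs beyond their SDs. The 17 subunits of the regulatory particle among the 44 ranged from 46.9 ± 4.06 FPKM for Psmd12 to 107 ± 5.62 FPKM for Psmd7 in MPs and from 34.9 ± 1.39 to 125 ± 4.42 FPKM, for the same genes, in APL cells. Their 6 ATPases, which are equimolar in the particle, lay within a range of 1.33-fold in MPs and 1.55-fold in APL cells. Psmb5 moved from rank 15 of 44 in MPs to rank 4 in APL cells, and Psme1 from 11 to 18. Psme4 remained among the least abundant, at 13.6 ± 1.05 FPKM in MPs and 24.8 ± 0.768 FPKM in APL cells, and Psmd9 had 15.2 ± 2.37 and 10.2 ± 1.15 FPKM. Across the 42 genes, Spearman's rho between the group means was 0.96, a description over genes that share libraries and lengths. Summed, the 14 core genes came to 2374 ± 294 FPKM in MPs and 2209 ± 96.0 FPKM in APL cells, and the 17 regulatory genes to 1352 ± 110 and 1225 ± 61.8 FPKM (SD, n = 3). The sums of the core genes overlapped between the groups, from 2175 to 2712 in MPs and from 2113 to 2305 in APL cells, and the highest sum of all belonged to MP library 3. Those of the regulatory genes did not overlap, from 1275 to 1478 in MPs and from 1154 to 1268 in APL cells.

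**Figure D4:**
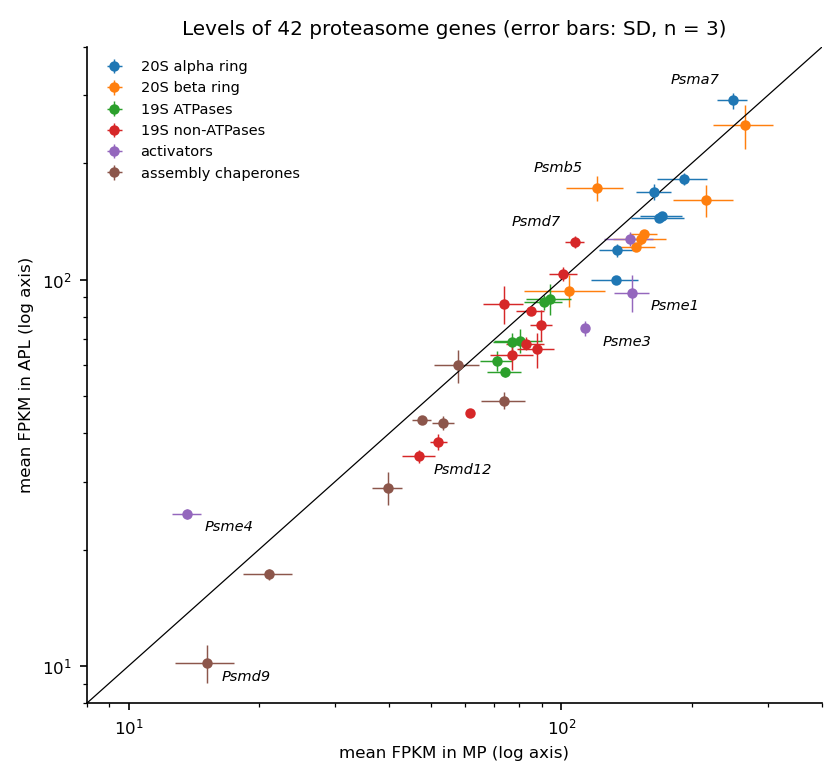
Mean FPKM of 42 proteasome genes in MPs (x axis, log scale) and APL cells (y axis, log scale), coloured by role; error bars are the SD (n = 3) and the line marks equal levels. Most genes lie on or just below the line, with Psme4 and Psmb5 above it and Psme1 and Psme3 below it.

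Ratios within a library do not depend on how libraries are scaled against each other, and 6 were computed from FPKM. Psmb5 over its immunoproteasome counterpart Psmb8, which replaces it in cells exposed to interferon, was 0.970, 1.01 and 1.00 in MPs and 1.55, 1.45 and 1.46 in APL cells. Every APL library was above every MP library, MP library 3 included. Psmb6 over Psmb9 was 1.41, 1.48 and 1.61 in MPs and 1.28, 1.30 and 1.31 in APL cells, lower throughout. Psmb7 over Psmb10 was 2.66, 2.93 and 2.99 in MPs and 2.77, 2.22 and 2.26 in APL cells, where the groups overlapped. Psme1 over Psme2, partners in a single ring, was 1.06, 1.02 and 0.969 in MPs and 0.679, 0.787 and 0.709 in APL cells. Psme4 over Psme3, the 2 nuclear activators, was 0.121, 0.132 and 0.109 in MPs and 0.325, 0.334 and 0.334 in APL cells. Both pairs were fully separated, in opposite directions. For Psme4 over Psme3 this followed from the opposite differences of the 2 genes and adds no evidence to them. Psmb8 and Psme2 were not called, so Psmb5 over Psmb8 and Psme1 over Psme2 rest mostly on Psmb5 and Psme1. They are not separate evidence on these genes. Psma8 over Psma7 was 0.00812, 0.0111 and 0.00937 in MPs and at most 0.000365 in APL cells, which followed from the difference of Psma8 itself. Two-sided exact permutation gave p = 0.1 for each ratio but Psmb7 over Psmb10 (p = 0.2), which became 0.12 and 0.2 after Benjamini-Hochberg adjustment over the 6; 0.1 is the smallest p that 3 libraries against 3 allow.

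**Figure D5:**
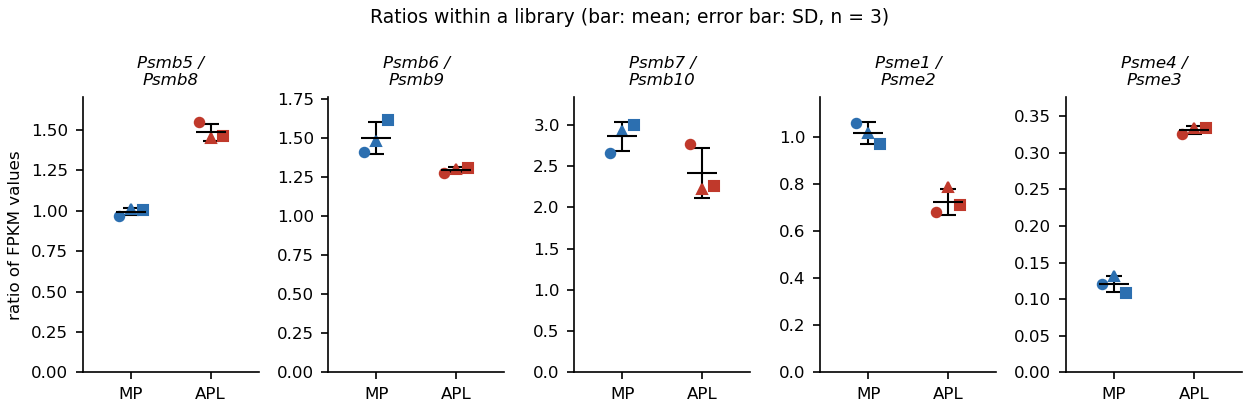
Ratios of FPKM values within a library (y axes, from 0) for 5 pairs of proteasome genes in the 3 MP and 3 APL libraries; circles, triangles and squares are libraries 1, 2 and 3, horizontal bars the mean and error bars the SD (n = 3). Psmb5 over Psmb8 and Psme4 over Psme3 are higher in every APL library, Psmb6 over Psmb9 and Psme1 over Psme2 lower, and Psmb7 over Psmb10 overlaps.

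Genes that work with the proteasome without belonging to the 44 were taken from a list of 35, of which 34 were tested. They comprised immunoproteasome subunits, an inhibitor, the maturation factor, ubiquitin receptors, deubiquitinases, shuttle factors, transcription factors and the ubiquitin and E1 genes. Of the 34, 6 were called higher (17.6%, against 29.7% of all genes) and 13 lower (38.2%, against 37.3%), with a median log2 fold change of -0.13, which was -0.026 from that of all genes. The immunoproteasome subunits did not pass the test: Psmb8 was at -0.064 (95% interval -0.37 to 0.24), Psmb9 at 0.059 (-0.24 to 0.36) and Psmb10 at -0.043 (-0.34 to 0.25). The core's maturation factor Pomp (-0.13) and the ubiquitin receptor Adrm1 (-0.20) were not called either. Shfm1, a small subunit of the lid, had 2987, 2687 and 3832 scaled fragments in MPs and 5045, 5287 and 5813 in APL cells. It was higher in every APL library (log2 fold change 0.78, SE 0.13, adjusted p = 0.000557 by limma). Txnl1, a thioredoxin bound to the regulatory particle, had 4532, 4770.0 and 5544 in MPs and 2788, 2809 and 2920.2 in APL cells. It was lower in every APL library (log2 fold change -0.80, SE 0.085, adjusted p = 4.03e-05 by limma), as was Psmf1, an inhibitor of the core, with 1347, 1195 and 1374 in MPs and 814, 857 and 859 in APL cells (log2 fold change -0.63, SE 0.08, adjusted p = 0.000125 by limma). Nfe2l1, the transcription factor known to raise proteasome genes when the proteasome is inhibited, had 2593, 2478 and 2381 in MPs and 2719, 2922 and 2900.4 in APL cells. Every APL library was above every MP library, by 1.15-fold (log2 fold change 0.20, SE 0.068, adjusted p = 0.0288 by limma), a call that was lost in 7 of 20 alternative settings, among them quantile normalization, scaling to the same total and the fits without MP library 2, APL library 2 or APL library 3. Its relative Nfe2l2 had 3742, 3692 and 3974 in MPs and 2365, 2677 and 2651 in APL cells. That gene was lower in every APL library (log2 fold change -0.57, SE 0.074, adjusted p = 0.000143 by limma). Nfe2l3, at 3.47 to 8.64 scaled fragments, was not called (0.19, 95% interval -0.69 to 1.07).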

How the data were processed

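Total RNA of 3 MP and 3 APL samples was sequenced from TruSeq libraries. Per the labels, CASAVA 1.8 and TopHat2 2.0.6 with mm10 were used; the study's methods name Cutadapt, STAR with mm9, HTSeq-count and DESeq2, and the tool that made the table is not given in the sources used here. The authors deposited FPKM values and estimated fragments, a signal scaled by a factor of each library: low values were multiples of a step of 0.867 to 1.23, and 87.3% to 89.4% of low values were whole multiples within 0.02. They were therefore not tested as counts. Table loci follow GRCm38, with starts counted from 0; coordinates here count from 1.

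Of the 16440 genes, the 14595 that reached 1 in 3 or more libraries were tested with limma 3.58.1 (R 4.3.3; lmFit, eBayes with trend) on log2(scaled fragments + 1), two-sided, with Benjamini-Hochberg adjustment over all genes. The scale understates changes of low genes. Groups came from the labels. At most 3 fragments was treated as the limit of detection. The members and gene lists were chosen with earlier results of these data known. Values in every library were given for members called past 1.5-fold, the highest and lowest of each role, Psmb5, Psmb6, Psmb7, Psmd4, Psmd14 and the 17 members whose call changed with the scaling; Psme3 was added after its values were seen. Of the list of pathway genes, immunoproteasome subunits, Pomp, Adrm1, Nfe2l1 and those called past 1.5-fold were named, and Nfe2l2 and Nfe2l3 were added as relatives of Nfe2l1. The fit was tested on simulated data. Alternatives covered filters, pseudocounts, scalings, FPKM, variance models, the replicate block and each library left out. Ratios and figures were made in Python 3.11.15 with scipy 1.17.1 and matplotlib 3.10.9.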

Additional observations from a re-analysis of the deposited data

How the results depend on the processing

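The 20 alternative settings left 12 of the 25 calls on proteasome genes as they were. The counts moved most with scaling. Libraries scaled to the same total and voom weights each shifted the median of all genes by -0.13. In either setting 33 genes were called lower and 2 higher, and 7 genes were lower past 1.5-fold. The background moved the same way. Over all genes, both settings called more lower than the 5443 of the main fit (6522 with voom weights) and fewer higher than its 4342. Relative to all genes the median of the 44 was -0.15 in both, as with the deposited scaling, but -0.26 with quantile normalization, -0.11 without MP library 3 and -0.083 without APL library 1. Scaling to the same total and voom weights put the medians at -0.41 and -0.41 for the non-ATPases, -0.51 and -0.51 for the activators and -0.46 and -0.46 for the chaperones. Median ratio scaling gave 5 genes higher, 2 of them past 1.5-fold, and over all genes it also called more higher than the 4342 of the main fit. Scaling to the 14 standard 20S ring genes was added after seeing the data and brings the members toward 0 by its construction; it shifted the median of all genes by 0.19. It gave 6 genes higher and 10 lower in place of 3 and 22, 2 and 1 past 1.5-fold, and 4 pathway genes lower. In this setting 12 genes lost their lower call, of which Psmc6, Psmd1 and Psmg1 lost it in no other. Over all genes it called 5122 higher and 3758 lower. Its medians were -0.053 for the 44 genes, -0.016 for the alpha ring, -0.0065 for the ATPases, -0.083 for the non-ATPases, -0.18 for the activators and -0.13 for the chaperones, and relative to all genes the 44 were at -0.14. Without the variance trend 13 genes were lower, and at adjusted p under 0.01 also 13. Over all genes, too, fewer were lower without the trend than the 5443 of the main fit.

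Leaving out 1 library at a time gave 2 to 5 genes higher and 13 to 23 lower, 1 to 2 higher and 2 to 5 lower past 1.5-fold, and 3 to 7 pathway genes higher and 10 to 13 lower. Over all genes, 3626 to 4715 were higher and 4781 to 4973 lower. The median of the 44 ranged from -0.30 to -0.15. The labels do not say whether the library numbers pair the samples. Correlations of same-numbered deviations were 0.26, -0.13 and 0.25 over 11002 genes, and those of different numbers ranged from -0.46 to 0.36. With 3 libraries in a group these values cannot decide it. With the replicate block, 27 members were called lower and 4 higher. All 25 calls were shared and 6 were added. Over all genes the block also raised both counts above the 5443 lower and 4342 higher of the main fit.

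Changes of sign were seen only in genes not called. Log2 fold changes turned to Psma2 -0.10, Psmd2 -0.10, Psmg4 -0.089 and Psmb9 -0.072 with the same total, Psma2 -0.10, Psmd2 -0.10, Psmg4 -0.093 and Psmb9 -0.073 with voom weights, Psma2 -0.067 and Psmd2 -0.049 with quantile normalization, Psmd14 0.013 and Psmb10 0.019 with median ratio scaling, and Psma6 0.11, Psmb4 0.11, Psmb6 0.051, Psmc1 0.11, Psmc3 0.090, Psmc4 0.0070, Psmd14 0.15, Psmd5 0.077, Psme2 0.025, Pomp 0.063, Psmb10 0.15 and Psmb8 0.13 with 20S ring scaling. With 1 library left out at a time, the genes that changed sign ranged from -0.028 to 0.13 for Psma2, from -0.17 to 0.031 for Psma6, from -0.21 to 0.074 for Psmb4, from -0.25 to 0.051 for Psmb6, from -0.14 to 0.011 for Psmc1, from -0.18 to 0.010 for Psmc3, from -0.10 to 0.013 for Psmd14, from -0.042 to 0.083 for Psmd2, from -0.059 to 0.21 for Psmg4, from -0.13 to 0.073 for Psmb10, from -0.15 to 0.085 for Psmb8 and from -0.045 to 0.21 for Psmb9. The cause of these changes was not tested. Depth limited Psmb11, which stayed at or under 3 fragments, and Psma8 in APL cells, which was close to that limit.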
